A study of Homo sapiens with 6 samples.

Results

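Of the 29806 genes in the counts, the 40 described here encode the folding and quality control apparatus of the endoplasmic reticulum (ER), together with the stress sensors that control it. They were chosen by symbol, with earlier results of these data known, and matched by NCBI Gene number. Each was found and was high enough to be tested. By role they were 11 chaperones and chaperone cofactors, 7 enzymes of disulfide formation, 5 stress sensors and transcription factors, 10 proteins of ER-associated degradation and 7 subunits of the channel complex through which new proteins enter the ER. RNA-seq had been performed on LNCaP cells, an androgen-responsive line from a human prostate cancer metastasis. Parental LNCaP cells, whose *PRKRA* gene (encoding PACT) is wild type, were compared with PACT KO cells, in which this gene was targeted by CRISPR-Cas9. PACT is a double-stranded RNA-binding protein known as an activator of the kinase PKR. Both groups were grown in RPMI-1640 with fetal bovine serum, plated at 1000000 cells per dish in 3 dishes each, and received no ER stress agent. The sample records give lysis 48 h after plating, whereas the study's methods time RNA extraction by confluence. The study also reported less proliferation, more cell cycle arrest and more apoptosis in PACT KO cells. Whether growth state or density played a part in the values below was not tested.

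The PACT KO cells had been sorted for a plasmid with Cas9 and the guide and grown from single colonies, whereas the parental cells had not. The study's supplement states that a single clone was carried into its later experiments, so what is particular to that clone and the loss of PACT cannot be told apart. The 3 replicates of a group are dishes, and the p-values measure the spread between dishes. Total counts ranged from 21835590 to 24940838 in parental libraries and from 19930060 to 24484415 in PACT KO libraries. *PRKRA* itself had 882, 809 and 866 counts in parental replicates 1 to 3 and 291, 331 and 243 in PACT KO replicates 1 to 3, a log2 fold change of -1.57 (SE 0.07, edgeR FDR 8.83e-21). All 9 luminal prostate markers were detected, with sums of 3671 to 3679 CPM in parental and 3795 to 3819 CPM in PACT KO libraries. CPM are counts per 1000000, of the unscaled total for the cell type markers and of the scaled library elsewhere. Leukocyte markers summed to at most 0.200 CPM and basal epithelial markers to at most 0.183 CPM in any library. Fibroblast markers summed to 27.0 to 29.9 CPM in parental and 38.8 to 44.4 CPM in PACT KO libraries, nearly all *COL1A1* with *COL1A2* at 0, and endothelial markers to 24.1 to 26.6 and 15.7 to 17.9 CPM, all *VWF* with *PECAM1* and *CDH5* at 0.

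Proteins bound for the membrane or for secretion are threaded into the ER, folded there by chaperones, cross-linked by disulfide enzymes and, when they fail to fold, exported for degradation. When unfolded proteins build up, the sensors IRE1α, ATF6 and PERK signal to the nucleus, and transcription factors such as spliced XBP1 and cleaved ATF6 raise the genes of this apparatus. That programme is the unfolded protein response, and secretory epithelium such as the prostate relies on it.

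Most of the ER folding genes were higher in PACT KO cells, among them every chaperone and cofactor. At an FDR under 0.01, 25 of the 40 genes (62.5%) were higher in PACT KO cells, where 15.3% of the 14462 genes tested were, and 2 were lower, where 18.8% of all genes were. The other 13 did not pass. With the added threshold of a 1.5-fold change, which the study used for differentially expressed genes (DEGs), 6 were DEGs and higher, against 3.07% of all genes, and 0 were DEGs and lower, against 2.65%. These 6 were *HSPA5*, *HSP90B1*, *MANF*, *DNAJB9*, *ERO1B* and *SEL1L*. The median log2 fold change of the 40 was 0.21, ranging from -0.27 to 0.84, beside 4.38e-04 for all genes tested. In 31 of them every PACT KO library lay above every parental library, an order seen in 25.1% of all genes, and in 3 every PACT KO library lay below, as in 27.2% of all genes.

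The roles differed in how many genes moved. All 11 chaperones and cofactors were higher, with a median log2 fold change of 0.36. Of the 7 disulfide enzymes, 6 were higher and 1 lower (median 0.23), and of the 10 degradation genes, 5 were higher, 1 was lower and 4 did not pass (median 0.12). Only *CREB3L2* of the 5 sensors and factors was higher, and 4 did not pass (median 0.07). In the translocon 2 of 7 were higher and 5 did not pass (median 0.06). These are counts of genes chosen by role, and no test of one role against another was made.

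**Figure D1:**
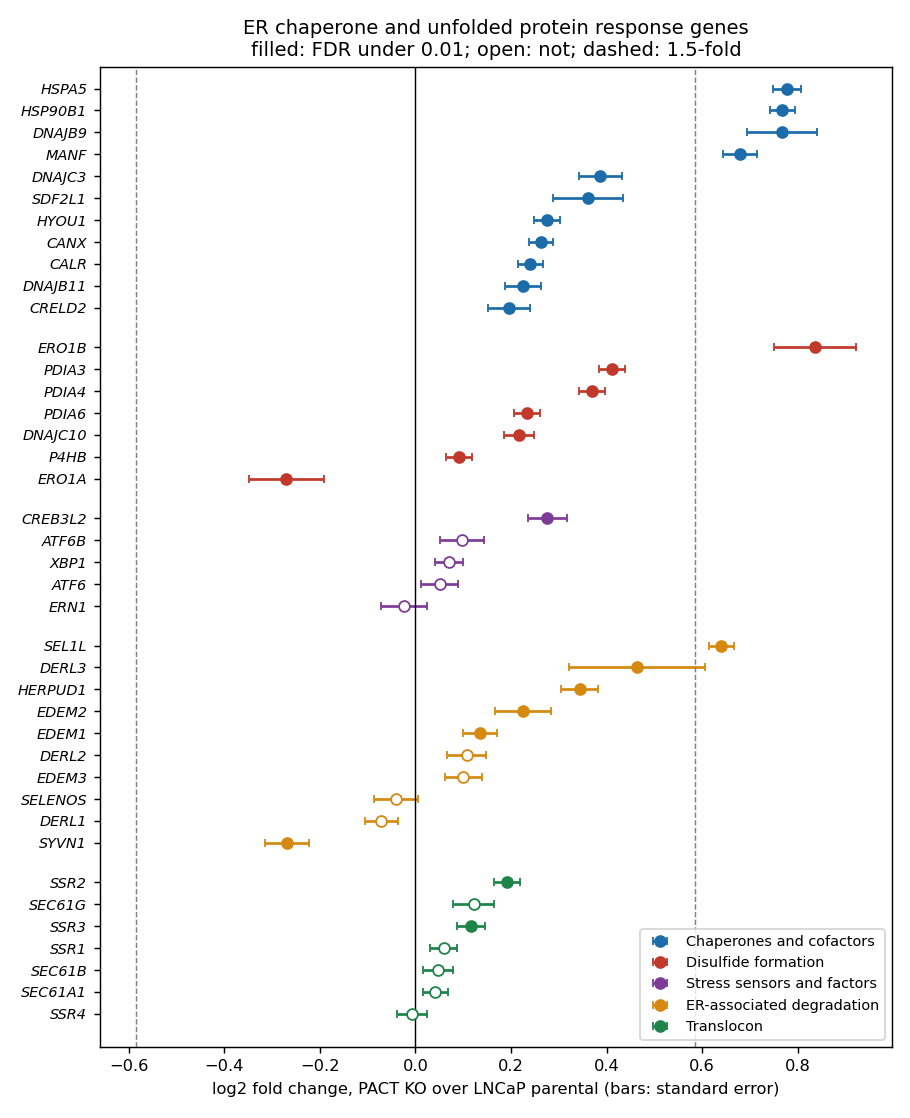
Log2 fold change of each of the 40 genes in PACT KO over LNCaP parental cells, with the standard error as bars, grouped by role and sorted within it. Filled points passed an FDR under 0.01 and the dashed lines mark a 1.5-fold change. The 11 chaperones all lie right of 0 and 6 genes lie past the 1.5-fold line, while the translocon genes lie close to 0.

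The rises were small in fold terms and even between dishes. Of the 25 genes that were higher, 22 were at least 1.1-fold higher, 14 at least 1.2-fold, 9 at least 1.3-fold, 4 at least 1.7-fold and 0 reached 2-fold. Nearest to the 1.5-fold threshold were *SEL1L* inside it at 1.56-fold and *DERL3* outside it at 1.38-fold. The median coefficient of variation between dishes was 2.35% in parental and 2.87% in PACT KO cells. Among the PACT KO libraries, replicate 2 was the highest in 30 of the 40 genes and replicate 3 the lowest in 25. The median log2 difference of the 40 genes from their parental mean was 0.19, 0.24 and 0.16 in PACT KO replicates 1 to 3, and 0.01, -0.00 and -0.01 in the parental replicates. The 6 DEGs remained 6 when any 1 of the 6 libraries was left out.

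**Figure D2:**
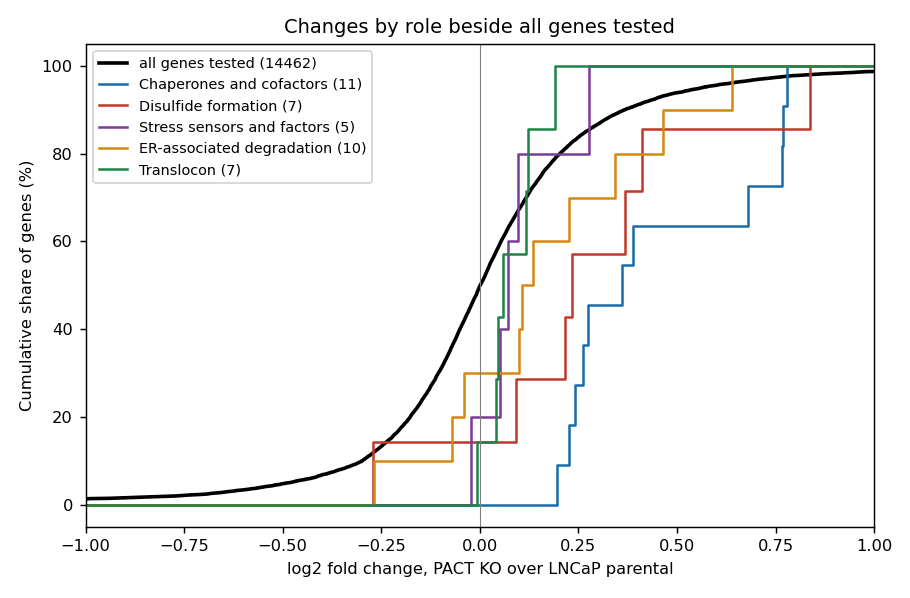
Cumulative share of genes (%, vertical) at or below each log2 fold change (horizontal, shown from -1 to 1), for all 14462 genes tested in black and for each role in colour. The line of the chaperones starts to climb at 0.19, where most of the black line has already passed, and those of the sensors and the translocon stay near 0.

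Summed over the 40 genes, the share of all counts went from 0.948% to 0.957% in parental libraries to 1.21% to 1.26% in PACT KO libraries, with no overlap. In CPM the sum was 9639 ± 86.5 (SD, n = 3) in parental and 12204 ± 293 (SD, n = 3) in PACT KO cells, a ratio of 1.27. Chaperones made up 72.8% of this gain, disulfide enzymes 17.2%, degradation genes 5.85%, the translocon 3.3% and sensors 0.893%. *HSP90B1* alone gave 26.1% of the gain and *HSPA5* 21.7%. In bulk RNA, more cells expressing a gene and more RNA of it per cell cannot be told apart. The share of counts from mitochondrial genes also differed, at 1.97% to 2.01% in parental and 2.5% to 2.86% in PACT KO libraries, and its part in these values was not tested.

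Several of these genes carry a DNA element through which the unfolded protein response is known to act. This ER stress response element (ERSE) reads CCAAT, where the factor NF-Y binds, then 9 bases of any kind and then CCACG, where ATF6 or XBP1 binds. A second form, ERSE-II, reads ATTGG, 1 base of any kind and CCACG. Both were defined from promoters of genes of this kind, so their presence here is not an independent finding. RefSeq windows from 250 bases before to 50 bases after a transcript start were searched (GRCh38.p14, both strands). There were 35116 windows for 27305 genes, as a gene can have several starts. ERSE occurred in 0.0769% of the windows and ERSE-II in 0.0541%. A window was at hand for 37 of the 40 genes, all but *PDIA3*, *DERL1* and *DERL3*. ERSE was found in 8 of the 37 (21.6%) and ERSE-II in 3 (8.11%). Of the 11 genes that hold one, 10 were higher, as were 13 of the 26 genes with a window and neither motif. Every ERSE and ERSE-II site found in the 37 genes is shown. Each is written 5′ to 3′ on the strand that reads as the motif does, with the fixed bases of the motif in capitals.
*HSPA5*, chr9:125241391-125241409, minus strand: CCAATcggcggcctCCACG
*HSP90B1*, upstream site, chr12:103930216-103930234, plus strand: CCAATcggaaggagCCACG
*HSP90B1*, downstream site, chr12:103930321-103930339, minus strand: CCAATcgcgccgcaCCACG
*ERO1B*, chr1:236282183-236282201, plus strand: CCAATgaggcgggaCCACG
*CALR*, chr19:12938384-12938402, minus strand: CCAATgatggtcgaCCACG
*CANX*, chr5:179698778-179698796, plus strand: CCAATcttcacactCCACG
*CRELD2*, chr22:49918554-49918572, minus strand: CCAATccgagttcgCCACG
*PDIA6*, chr2:10812853-10812871, minus strand: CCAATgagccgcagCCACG
*XBP1*, chr22:28800603-28800621, minus strand: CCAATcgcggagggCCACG
*HERPUD1*, ERSE-II, chr16:56932025-56932035, plus strand: ATTGGgCCACG
*HYOU1*, ERSE-II, near site, chr11:119057274-119057284, plus strand: ATTGGaCCACG
*HYOU1*, ERSE-II, far site, chr11:119057380-119057390, plus strand: ATTGGaCCACG
*SDF2L1*, ERSE-II, chr22:21642114-21642124, minus strand: ATTGGtCCACG

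The sites of *HSPA5*, *HSP90B1* (upstream site), *CANX*, *PDIA6* and *XBP1* lie in the direction of the gene, as does that of *HERPUD1*. Those of *CALR*, *CRELD2*, *ERO1B*, *HYOU1*, *SDF2L1* and the downstream site of *HSP90B1* lie on the opposite strand. The closest to a start was that of *XBP1*, 52 to 34 bases before it, followed by *HSPA5* at 66 to 48 bases, and the farthest that of *ERO1B*, at 243 to 225 bases. The sites of *CANX* and *PDIA6* belong to starts inside the gene. These genes begin at chr5:179678656 and, on the minus strand, at chr2:10837712. *HSP90B1* and *HYOU1* were the only ones of the 37 genes with more than 1 site, and the stretch that holds both sites is given for each. For *HSP90B1* it runs from 199 to 66 bases before the start, on the strand of the gene (chr12:103930211-103930344, plus strand), with the fixed bases of the motifs in capitals, so that the second site reads CGTGG first and ATTGG last.
*HSP90B1*: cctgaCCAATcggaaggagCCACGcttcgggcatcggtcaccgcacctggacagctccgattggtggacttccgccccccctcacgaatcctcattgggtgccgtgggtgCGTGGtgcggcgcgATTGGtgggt
For *HYOU1* it runs from 193 to 64 bases before the start (chr11:119057269-119057398, minus strand), and the far site overlaps a match to TGACGTGG, the core of the XBP1 site named UPRE, which is in capitals too.
*HYOU1*: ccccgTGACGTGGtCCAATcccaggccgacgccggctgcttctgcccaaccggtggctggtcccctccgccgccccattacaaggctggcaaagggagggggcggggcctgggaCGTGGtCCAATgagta

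Of the 11 genes with ERSE or ERSE-II in the window, 10 were higher in PACT KO cells, 3 of them DEGs (*HSPA5*, *HSP90B1* and *ERO1B*), and the median log2 fold change was 0.27. The 11th, *XBP1*, did not pass. Of the 26 genes with a window but neither motif, 13 were higher, 3 of them DEGs (*MANF*, *DNAJB9* and *SEL1L*), with a median of 0.11. Both groups of genes thus held 3 of the 6 DEGs. They differed in role too, as most of the 11 were chaperones and the 26 held every translocon gene. Chaperones with a motif had log2 fold changes of 0.78 (*HSPA5*), 0.77 (*HSP90B1*), 0.36 (*SDF2L1*), 0.27 (*HYOU1*), 0.26 (*CANX*), 0.24 (*CALR*) and 0.19 (*CRELD2*). Those without one had 0.77 (*DNAJB9*), 0.68 (*MANF*), 0.39 (*DNAJC3*) and 0.23 (*DNAJB11*). Motif and role were not tested apart. Outside the 40, 22 tested genes had either motif, of which 5 (22.7%) were higher and 3 lower, with a median of 0.03, beside 15.6% higher among tested genes with a window and no motif. The UPRE core occurred in 0.729% of windows and in those of *DNAJC10*, *HYOU1*, *SSR3* and *SSR4*. The first 3 of these were higher, as were 20 of the 33 described genes with a window and no core. Outside the 40, 24 (18%) of 133 tested genes with the core were higher and 20 were lower. Among tested genes with a window and no core, 15.6% were higher. A match is a run of letters and no measurement of binding was made.

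**Figure D3:**
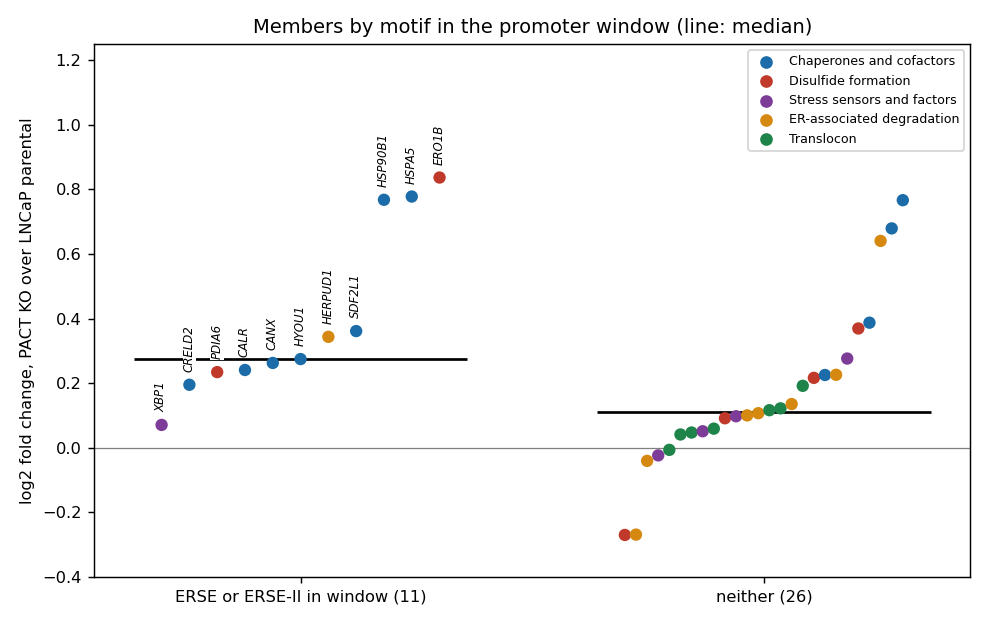
Log2 fold change in PACT KO over LNCaP parental cells of the 11 genes with ERSE or ERSE-II in the promoter window (left) and the 26 genes with neither (right), coloured by role, with the median as a line. The median lies at 0.27 on the left and 0.11 on the right, and 3 of the 6 largest changes stand on each side. Most genes on the left are chaperones, and every translocon gene stands on the right.

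*HSPA5* (Gene 3309, chr9:125234853-125241343) encodes BiP, the Hsp70 chaperone of the ER that also holds the stress sensors inactive. Its level was 801, 762 and 779 CPM in parental replicates 1 to 3 and 1329.6, 1403 and 1281 CPM in PACT KO replicates 1 to 3. No parental dish came near the lowest PACT KO dish, and the means of 781 ± 19.7 and 1338 ± 61.5 CPM (SD, n = 3) gave a log2 fold change of 0.78 (SE 0.03, edgeR FDR 3.86e-23), or 1.71-fold. *HSP90B1* (Gene 7184, chr12:103930410-103947926) encodes GRP94, the Hsp90 chaperone of the ER, which folds integrins and Toll-like receptors. It had 959, 941 and 956 CPM in parental replicates 1 to 3 and 1620.5, 1661 and 1581 CPM in PACT KO replicates 1 to 3. The groups were again far apart for their spread, at 952 ± 9.35 against 1621 ± 39.7 CPM (SD, n = 3), and the log2 fold change was 0.77 (SE 0.03, FDR 2.01e-24). Among the 239 genes with a parental mean of at least 500 CPM, a level chosen after the values were seen, *HSPA5* and *HSP90B1* had the largest and second largest log2 rise and were the only 2 DEGs that were higher.

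*MANF* (Gene 7873, chr3:51385291-51389397) encodes a small ER protein that binds BiP and is secreted under stress. Its level was 111, 99.8 and 102 CPM in the parental dishes and 168, 173 and 159 CPM in the PACT KO dishes, replicates 1 to 3 in each. With no overlap and means of 104 ± 5.67 and 167 ± 6.76 CPM (SD, n = 3), it rose by 0.68 on the log2 scale (SE 0.03, FDR 8.35e-19). *DNAJB9* (Gene 4189, chr7:108569874-108574850) encodes ERdj4, a J-domain partner of BiP that restrains IRE1α. It had 14.2, 13.7 and 15.4 CPM in parental and 24.6, 25.9 and 23.1 CPM in PACT KO replicates 1 to 3. The dishes of the groups did not overlap, and the log2 fold change was 0.77 (FDR 4.36e-11), with an SE of 0.07 that was wider than for *HSPA5*. Among the 9904 genes with a parental mean of at least 10 CPM, a level also chosen after the values were seen, 0.858% were DEGs and higher, and 5 of the 38 genes described here at that level were.

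*CANX*, the membrane-bound lectin chaperone calnexin, measured 694, 702 and 698 CPM in parental and 833, 847 and 831 CPM in PACT KO replicates 1 to 3. The dishes of each group lay close together, and the difference of 0.26 on the log2 scale (SE 0.02) had an FDR of 3.38e-11 in edgeR despite its small size. Its soluble partner *CALR*, calreticulin, differed by a similar 0.24 (SE 0.03, FDR 5.03e-10), from 1654 ± 27.6 to 1953 ± 47.0 CPM (SD, n = 3).

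The other chaperone cofactors rose by 0.19 to 0.39 on the log2 scale, and in each the 3 PACT KO dishes lay above the 3 parental dishes. *DNAJC3*, or p58IPK, a BiP cofactor also known as an inhibitor of the eIF2α kinases, went from 40.9 ± 2.70 to 53.6 ± 0.892 CPM (SD, n = 3; log2 fold change 0.39, FDR 2.45e-09). *HYOU1*, or GRP170, the nucleotide exchange factor of BiP, rose by 0.27 (FDR 8.07e-11), and *SDF2L1*, a partner of BiP and its J-domain proteins, by 0.36 (FDR 1.03e-04). *DNAJB11*, or ERdj3, which delivers unfolded clients to BiP, rose by 0.23 (FDR 5.46e-06), and *CRELD2*, a secreted ER stress protein, by 0.19 (FDR 3.42e-04). The call of *CRELD2* was lost without PACT KO replicate 1, at 0.14 and an FDR of 0.0162. In *DNAJB11*, 451 exonic bases are shared with another gene on the same strand, whose reads could be counted in either.

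**Figure D4:**
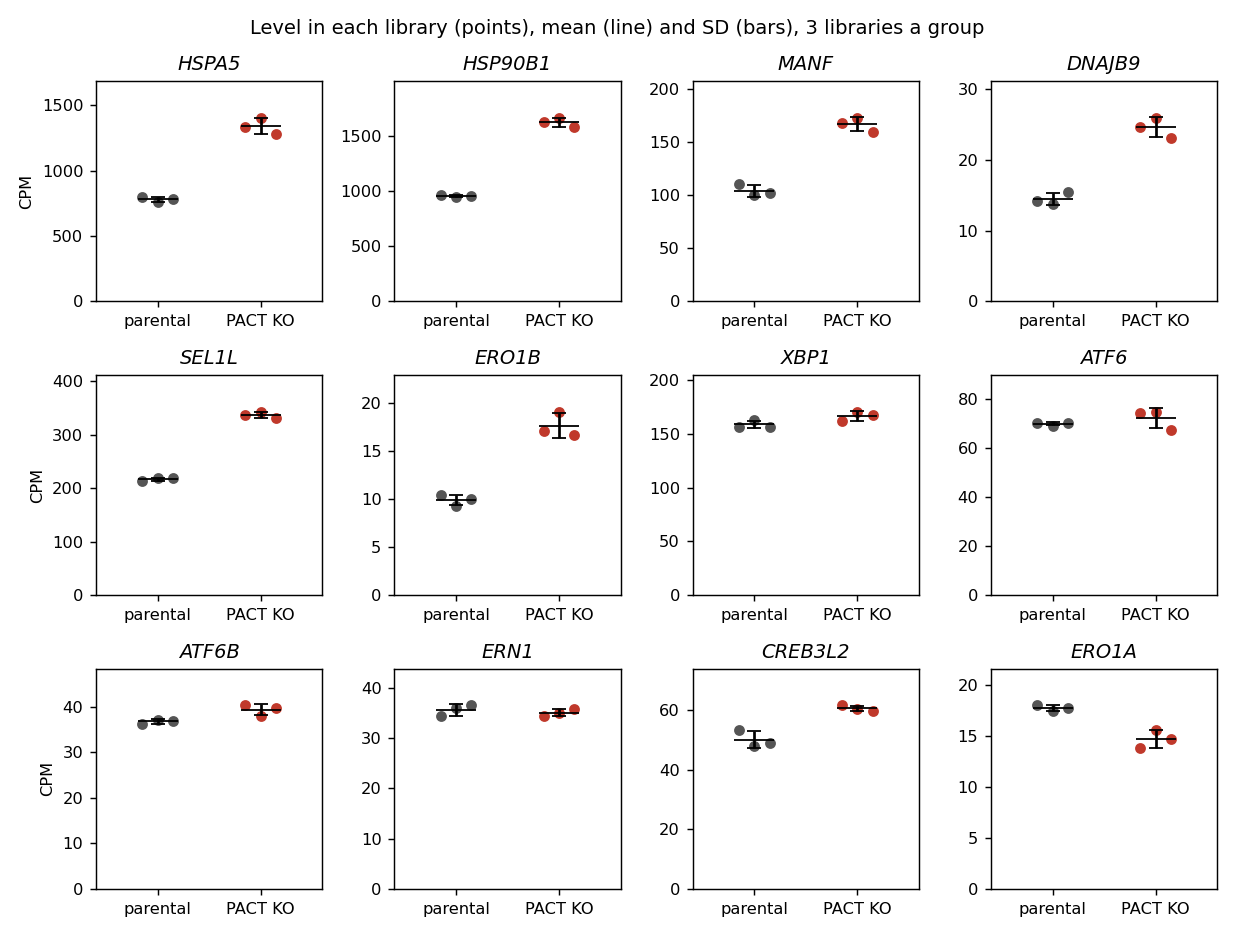
CPM in each library (points, replicates 1 to 3 from left to right in each group), with the mean (line) and SD (bars) of 3 dishes, for the 6 DEGs, the 5 sensors and factors, and *ERO1A*. Each vertical axis starts at 0. The PACT KO points stand clear above the parental points in the 6 DEGs and in *CREB3L2*, overlap or nearly touch them in *XBP1*, *ATF6*, *ATF6B* and *ERN1*, and lie below them in *ERO1A*.

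The disulfide enzymes rose with one exception, and the 2 oxidases of the group went opposite ways. *PDIA3*, or ERp57, the isomerase that works with calnexin and calreticulin, had 708, 699.8 and 688 CPM in parental and 937, 958 and 892 CPM in PACT KO replicates 1 to 3. Every PACT KO dish was above every parental dish (log2 fold change 0.41, SE 0.03, edgeR FDR 1.43e-15). *PDIA4*, or ERp72, had 306, 301 and 301 and 389, 405 and 378 CPM in the same order, also without overlap, and rose by 0.37 (SE 0.03, FDR 5.08e-14). *PDIA6*, the isomerase P5 that associates with BiP, had 262, 261 and 258 and 305, 315 and 298 CPM and rose by 0.23 (SE 0.03, FDR 3.85e-09). *DNAJC10*, or ERdj5, a reductase that unlocks disulfides for degradation, rose by 0.22 (FDR 4.29e-07). *P4HB*, the founding protein disulfide isomerase, was the least changed of the calls at 0.09 (846 ± 23.3 to 901 ± 17.4 CPM, SD, n = 3; FDR 0.00448). Its FDR was 0.0120, 0.0149 or 0.0755 without parental replicate 1, 2 or 3, and 0.0152 without PACT KO replicate 2.

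ERO1 oxidases pass electrons from the isomerases to oxygen. *ERO1B* (Gene 56605, chr1:236215101-236281958), the form known from secretory tissues, had 10.4, 9.30 and 9.97 CPM in parental and 17.1, 19.1 and 16.7 CPM in PACT KO replicates 1 to 3. This was the largest rise of the 40 genes, with a log2 fold change of 0.84 (SE 0.09, FDR 2.32e-10), or 1.79-fold, and no overlap. *ERO1A*, the widely expressed and hypoxia-inducible form, had 18.0, 17.4 and 17.7 CPM in parental and 13.8, 15.5 and 14.7 CPM in PACT KO replicates 1 to 3, so that every PACT KO dish was lower. Its log2 fold change of -0.27 (SE 0.08) passed at an FDR of 0.00459, but the FDR was 0.0200 in DESeq2, 0.0113 with library totals as scaling, and 0.0191, 0.0111, 0.0165, 0.0214 and 0.0107 without parental replicates 1, 2 and 3 and PACT KO replicates 1 and 3. As means (SD, n = 3), *ERO1B* went from 9.89 ± 0.554 to 17.7 ± 1.29 CPM and *ERO1A* from 17.7 ± 0.267 to 14.7 ± 0.870 CPM.

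Of the sensors and factors among the 40 genes, 4 of 5 did not pass. The third sensor, PERK, is encoded by *EIF2AK3*, which was counted with the wider ER genes and was higher by 0.23 on the log2 scale (SE 0.04, edgeR FDR 4.29e-05). *XBP1*, whose mRNA is spliced by IRE1α to make the active factor, had 157, 163 and 157 CPM in parental and 162, 171 and 168 CPM in PACT KO replicates 1 to 3. The groups overlapped and the log2 fold change was 0.07 (SE 0.03, edgeR FDR 0.0518), though the FDR was 0.00875 with upper quartile scaling and 0.00552 with library totals. Counts per gene do not separate the spliced from the unspliced form. *ERN1*, which encodes IRE1α, had 34.3, 35.9 and 36.5 and 34.3, 35.0 and 35.7 CPM, with interleaved dishes and a value of -0.02 (SE 0.05, FDR 0.725).

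*ATF6*, the membrane-bound factor released by cleavage in the Golgi, had 70.2, 69.1 and 70.0 CPM in parental and 74.1, 74.8 and 67.4 CPM in PACT KO replicates 1 to 3. PACT KO replicate 3 was the lowest of the 6 dishes and the other 2 were the highest (log2 fold change 0.05, SE 0.04, FDR 0.293). Its relative *ATF6B* had 36.2, 37.2 and 36.9 and 40.3, 38.0 and 39.8 CPM, without overlap but within a narrow range (0.10, SE 0.05, FDR 0.0827). *SEC23A*, a gene of ER export, did not pass (log2 fold change 2.83e-05, edgeR FDR 0.999), while *SEC24D*, another, was higher (0.57, FDR 1.16e-11). Of the 17 genes of COPII vesicles and retrieval, 5 were higher and 3 lower. *CREB3L2* (Gene 64764), or BBF2H7, is cleaved in the same way as ATF6 and is known to control *SEC23A* and other genes of ER export, but its activity was not tested. It alone of the 5 passed, at 53.3, 48.1 and 49.1 CPM in parental and 61.7, 60.5 and 59.9 CPM in PACT KO dishes with no overlap, a log2 fold change of 0.28 (SE 0.04, FDR 6.36e-07).

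ER-associated degradation held the partners that moved apart. *SEL1L* (Gene 6400, chr14:81471547-81533853) encodes the scaffold of the HRD1 ubiquitin ligase complex, and *SYVN1* encodes HRD1 itself. *SEL1L* had 213, 219 and 218 CPM in parental and 337, 343 and 331 CPM in PACT KO replicates 1 to 3. It rose by 0.64 on the log2 scale (SE 0.03, edgeR FDR 3.23e-21), from 216 ± 3.30 to 337 ± 5.95 CPM (SD, n = 3). *SYVN1* had 53.3, 54.4 and 48.6 CPM in parental and 42.9, 41.0 and 46.0 CPM in PACT KO replicates 1 to 3. Each PACT KO dish was lower than each parental dish, and the log2 fold change was -0.27 (SE 0.05, FDR 7.77e-06). In the GENCODE annotation 461 of its 5496 exonic bases are shared on the same strand with *FAU* and *MIR6751*, and how such reads were assigned is not given in the sources used here.

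*HERPUD1*, or HERP, which recruits substrates to that ligase, had 87.9, 79.8 and 82.7 CPM in parental and 105.1, 112 and 99.9 CPM in PACT KO replicates 1 to 3. The groups did not overlap, and it rose by 0.34 (SE 0.04, edgeR FDR 1.68e-09). The EDEM proteins trim mannose from misfolded glycoproteins, and *EDEM2*, which makes the first cut, had 25.8, 28.9 and 25.8 and 30.1, 32.4 and 31.7 CPM. Its rise of 0.23 (SE 0.06, FDR 0.00161) did not overlap between groups but was lost without parental replicate 1 or 3 or PACT KO replicate 2, with FDRs of 0.0232, 0.0209 and 0.0116, and with DESeq2 (0.0111). *EDEM1* was higher by 0.14 (FDR 0.00182, but 0.0146 with DESeq2 and 0.0102 without parental replicate 3), and *EDEM3* did not pass at 0.10 (FDR 0.0308, but 0.00821 without parental replicate 2, 0.00762 with upper quartile scaling and 0.00620 with library totals).

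Derlins form the channel for export from the ER, and of the 3 only *DERL3*, known to be induced by the unfolded protein response, passed. It had few reads, with 75, 56 and 72 counts in parental and 92, 116 and 73 in PACT KO replicates 1 to 3. The rise of 0.46 (SE 0.14, edgeR FDR 0.00736) was not called by DESeq2 (0.0846) or limma-voom (0.0187) and was lost without parental replicate 2 or 3 or PACT KO replicate 2, at FDRs of 0.0459, 0.0219 and 0.0980. Of its 3796 exonic bases, 2923 overlap *SMARCB1* on the opposite strand, and whether strand was used in counting is not given in the sources used here. *DERL1* and *DERL2* had log2 fold changes of -0.07 and 0.11 and *SELENOS*, the selenoprotein that links derlins to the p97 ATPase, of -0.04 (FDR 0.0978, 0.0334 and 0.508). *DERL2* passed with upper quartile scaling (FDR 0.00911) and with library totals (0.00726).

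In the translocon the changes were small. *SSR2*, a subunit of the translocon-associated protein (TRAP) complex that assists the entry of some signal sequences, had 275, 272 and 268 CPM in parental and 303, 322 and 306 CPM in PACT KO replicates 1 to 3. It rose without overlap by 0.19 (SE 0.03, edgeR FDR 3.72e-07). *SSR3*, also of TRAP, had 169.5, 165 and 172 and 182, 183 and 184 CPM and rose by 0.12 (SE 0.03, FDR 8.74e-04, or 0.0127 without parental replicate 2). The other 2 TRAP subunits did not pass, *SSR1* at 182, 181 and 182 and 189, 194 and 185 CPM (log2 fold change 0.06, FDR 0.0874, but 0.00831 with library totals) and *SSR4* at a log2 fold change of -0.01 (FDR 0.886).

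None of the 3 subunits of the SEC61 channel passed, though *SEC61G* did with upper quartile scaling (FDR 0.00475) and with library totals (0.00384). *SEC61G* had 44.7, 48.1 and 45.7 CPM in parental and 48.7, 52.4 and 49.5 CPM in PACT KO replicates 1 to 3, without overlap (log2 fold change 0.12, SE 0.04, edgeR FDR 0.0179). *SEC61A1*, the pore, and *SEC61B* had log2 fold changes of 0.04 and 0.05 (SE 0.03 and 0.03, FDR 0.208 and 0.236). For *SEC61A1* the CPM was 614 ± 1.71 in parental and 632 ± 18.3 in PACT KO cells (SD, n = 3).

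A wider set of 138 genes of the ER and its export route, in 11 lists, went both ways. Of the 132 tested, 31 were higher (23.5%, beside 15.3% of all genes tested), 26 were lower (beside 18.8% of all genes tested) and 75 did not pass. The median log2 fold change was 0.02. There was 1 DEG in each direction, where 3.07% of all genes were DEGs and higher and 2.65% were DEGs and lower. Prolyl isomerases of the ER were the list with the highest median, 0.20, and 3 of 7 were higher and 0 lower. *FKBP9* had a log2 fold change of 0.40 (FDR 6.74e-12) and *FKBP10*, which acts on collagen, of 0.31 (FDR 8.97e-12). By contrast 0 of 17 further degradation genes were higher and 6 were lower, among them the ubiquitin-conjugating enzyme *UBE2J2* at -0.26 (FDR 3.16e-07) and the lipid droplet and ER protein *AUP1* at -0.20 (FDR 1.56e-05). Of 15 further disulfide enzymes 4 were higher and 5 lower, and both DEGs of the wider set were in this list. *GPX8*, an ER peroxidase, went from 14.4 ± 1.38 to 25.9 ± 0.715 CPM (SD, n = 3; log2 fold change 0.85, FDR 3.98e-12), and *AGR2*, an isomerase of mucus-secreting cells, from 1.63 ± 0.0910 to 0.782 ± 0.189 CPM (SD, n = 3; log2 fold change -1.04, FDR 6.36e-04).

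In the other lists the calls were few or mixed. Of 13 further chaperone cofactors 5 were higher and 1 lower, and the 2 higher ones with the smallest p were *CRELD1* at 0.32 and *SERP1*, a stabiliser of new membrane proteins, at 0.22. Of 10 further sensors and proteases 2 were higher and 0 lower, *EIF2AK3*, described above, and *NFYB*, a subunit of the factor that binds ERSE, at 0.17 (FDR 0.00131). The other subunits of that factor, *NFYA* and *NFYC*, did not pass, at 0.10 (FDR 0.0225) and 0.03 (FDR 0.603). Of 17 genes of COPII vesicles and retrieval 5 were higher and 3 lower, with the cargo adaptor *SEC24D* at 0.57 (FDR 1.16e-11). Glycoprotein quality control had 3 higher and 2 lower of 11, with *ERLEC1*, a lectin of degradation, at 0.44. The oligosaccharyltransferase had 1 higher (*MAGT1*, 0.26) and 2 lower of 12, and further translocation genes 4 higher and 4 lower of 17. ER-phagy receptors had 3 higher, with *RETREG1* at 0.42, and 2 lower of 6, and UFMylation genes 1 higher (*UFL1*, 0.45) and 1 lower of 7. No test compared these lists with the 40 genes.

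**Figure D5:**
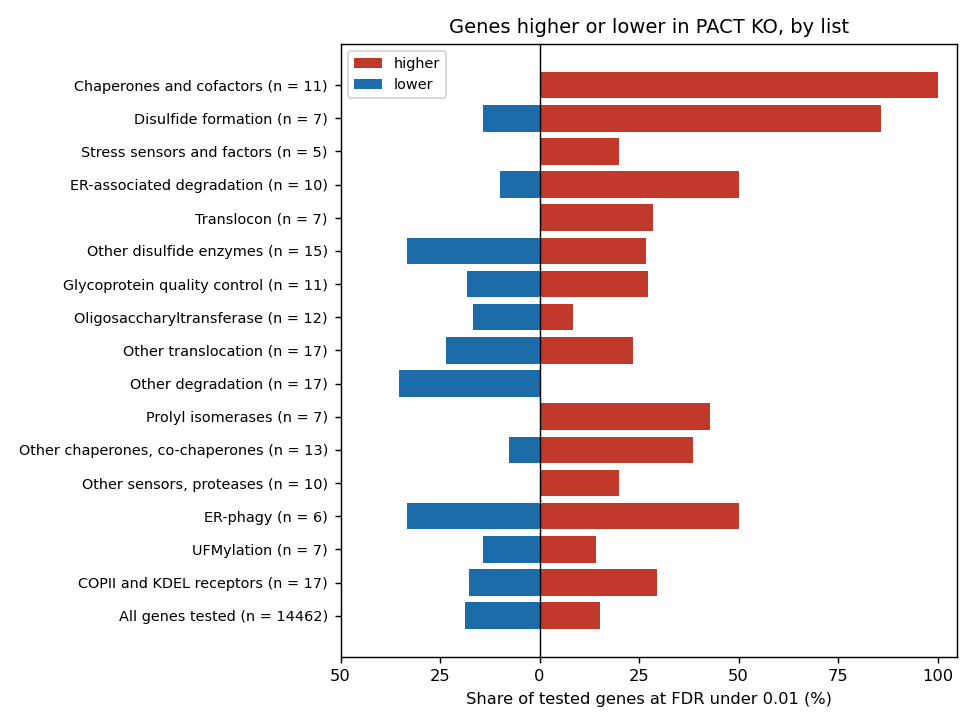
Share of tested genes (%) at an FDR under 0.01 that were higher (red, to the right) or lower (blue, to the left) in PACT KO cells, for the 5 roles of the 40 genes, the 11 lists of other ER genes and all 14462 genes tested. The chaperones reach 100% higher, and the list of other degradation genes has 0 higher genes.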

How the data were processed

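RNA-seq of polyA RNA was performed on an Illumina NovaSeq by the authors, who deposited raw counts of reads per gene for 3 LNCaP parental and 3 PACT KO libraries, with no normalization. The submitters' processing notes name bcl2fastq 2.20.0.422, STAR 2.5.3a, StringTie 1.3.3, featureCounts 1.5.3 and hg38. The annotation and the strand setting are not given in the sources used here. Of 29806 gene rows, 27540 (92.4%) were named from RefSeq. Reads on the single blank row, 0.0688% to 0.0708% per library, were excluded. All 6 columns were matched to their samples by their labels.

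Genes were kept by filterByExpr, libraries scaled by TMM, and groups compared by the quasi-likelihood test of edgeR 4.0.16 (R 4.3.3; glmQLFit and glmQLFTest with defaults, 2-sided), with Benjamini-Hochberg adjustment over 14462 genes. An exact permutation test of 3 against 3 dishes cannot give a p under 0.10 and was not used. The study's thresholds for DEGs, an FDR under 0.01 and at least 1.5-fold, were applied. CPM use TMM factors, except those of the cell type markers, which use total counts. The SE is the absolute log2 fold change divided by the square root of F. The common dispersion was 8.41e-04. The 40 genes, their roles, the 11 lists, the markers, the motifs and the tests were chosen with earlier results of these data known. Values per library are given for the DEGs, the 5 sensors and the 4 genes with the smallest p in each other role. From each list of other ER genes at most 2 genes per direction are named, besides *SEC23A*, *NFYA* and *NFYC*. Results were recomputed under alternatives of scaling, filter, tool (DESeq2 1.42.0, limma 3.58.1 voom), threshold, replicate block and left-out library. On simulated counts of 14451 genes, 36 of 50 genes changed 1.25-fold, 43 of 50 changed 1.5-fold and 49 of 50 changed 2-fold were called. So was 1 unchanged gene. The simulation gave all genes and both groups the same dispersion and changed only genes above a minimum mean count. In the data, the variance between pairs of dishes over that of sampling alone was 2.14 to 3.73 in PACT KO and 1.58 to 2.05 in parental cells. The recoveries therefore hold for the simulated setting only. Promoter windows and positions are from RefSeq (GRCh38.p14) and exon overlaps from GENCODE 29. Tables and figures were made with Python 3.11.15, pandas 2.3.3 and matplotlib 3.10.9.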

Additional observations from a re-analysis of the deposited data

How the results depend on the processing

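The 6 DEGs that were higher and the 0 that were lower held under every alternative run, and the number of the 40 genes higher at an FDR under 0.01 ranged from 22 (DESeq2) to 30 (library totals as scaling), or 28 at an FDR under 0.05, and from 21 to 25 when 1 library was left out. Over all genes, 1562 of 16052 were higher with DESeq2 and 2731 of 14462 with library totals, beside 2214 of 14462 in the main fit. The median log2 fold change of all genes was 0.0297 with library totals and 0.0245 with upper quartile scaling, beside 4.38e-04. Calls gained under these scalings came alongside that shift. Of the 25 higher genes among the 40, 19 kept their call in every setting. The number lower was 1 with library totals and with DESeq2, and 1 to 2 with a library left out, in each case through the loss of *ERO1A*. The median log2 fold change of the 40 stayed between 0.20 and 0.23. The same-numbered libraries did not deviate together (correlations of -0.094, 0.0029 and -0.086), so the numbers were not treated as pairs; with the replicate block 24 genes were higher, 2 lower and 6 DEGs, only *DERL3* losing its call (FDR 0.0182). Over all genes the block gave 2139 higher and 2631 lower genes. Signs changed only in genes that did not pass. *ERN1* was at 2.79e-04 with upper quartile scaling and 0.00546 with library totals. *SSR4* was at 0.02 with either (0.0174 and 0.0226) and from -0.0482 to 0.0246 with a library left out. *SELENOS* ranged from -0.103 to 0.0106 with a library left out. Of 600 comparisons of a gene under an alternative, 554 kept direction and call, 25 lost the call, 13 gained it and 8 changed sign. Where 1 dish was left out, the remaining 2 of its group were fitted with the spread of both groups. Depth limits *DERL3* most, which had 56 to 116 counts in a library.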
